A study of Rattus norvegicus with 8 samples.

Results

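The osteoclast resorption machinery is described here as 10 listed genes: Acp5, Ctsk, Mmp9, Tcirg1, Clcn7, Car2, Atp6v0d2, Ostm1, Ocstamp and Dcstamp. They were looked up by symbol in a table of raw counts for 17337 genes, where 8 of the 10 were found; Ocstamp and Dcstamp, which encode membrane proteins needed for the fusion of osteoclast precursors, were not analysed here. All 8 passed the filter on low counts and are among the 10472 genes tested. The tissue was periodontal ligament (PDL), the connective tissue that holds the tooth root in its bony socket, taken by laser micro-dissection from the cervical part of the ligament of rats. Total RNA was sequenced from 4 animals aged 18 days (P18) and 4 aged 28 days (P28). Both ages were untreated animals with normal growth, and the labels name no strain, allele or agent. The teeth come into contact with their antagonists between these ages, and the comparison asks how expression in the ligament differs before and after that.

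Osteoclasts are large multinucleate cells of the myeloid lineage that dissolve mineralized tissue. They seal off a space on the bone surface and pump protons and chloride into it. The acid dissolves the mineral, and secreted proteases then digest the collagen that is left bare. In the tooth socket this work reshapes the alveolar bone around the ligament as the tooth erupts and drifts. Carbonic anhydrase II (Car2) supplies the protons. The vacuolar ATPase moves them, with Tcirg1 and Atp6v0d2 as the subunit forms that osteoclasts favour. Clcn7 and its partner Ostm1 carry the chloride. Ctsk and Mmp9 are proteases, and Acp5 is the tartrate-resistant acid phosphatase by which osteoclasts are stained.

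The libraries held 5252693 to 26645656 counts each. Where a gene had 0 counts, up to 3 would still be allowed by counting error alone, which is 0.108 CPM at the greatest depth and 0.623 CPM at the least. Levels are given as CPM, the gene's share of the library's counts after TMM scaling, and a gene was called at an adjusted p under 0.05 over all genes tested. P28 replicate 4 was the shallowest library and correlated less with the other P28 libraries (0.750 to 0.766, across genes, which are not independent replicates) than these did among themselves (0.813 to 0.827). The captures held markers of ligament fibroblasts in every library, with a sum of 95884 to 137100 CPM at P18 and 137740 to 195790 CPM at P28 over 9 genes. Most of this sum came from the collagen genes Col1a1 (37215 to 82678 CPM) and Col3a1 (30493 to 79491 CPM), so it gives no share of fibroblast RNA. In such bulk samples, more osteoclasts and more RNA per osteoclast cannot be told apart.

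The RefSeq table of promoters (build GRCr8) holds windows for 5 of the 8 genes: Acp5 with 2 start sites, Ctsk, Tcirg1, Clcn7 and Ostm1. The 250 bases before each start are shown for Acp5, Ctsk and Tcirg1, which were among the 4 most abundant members with a fold change above 0. Clcn7 was added after its values were seen, because it ranked the libraries in an order like that of Tcirg1. That co-variation did not pass after adjustment. Capitals mark matches, on either strand, to motifs of 4 factors known in osteoclasts: TGGAAA for NFAT, TGANTCA for AP-1, TCANGTG for the E-box of MITF and its relatives, and GAGGAA for PU.1. A match is a description of the letters and not a binding site.
Acp5, upstream start, chr8:28945931-28946180 (-): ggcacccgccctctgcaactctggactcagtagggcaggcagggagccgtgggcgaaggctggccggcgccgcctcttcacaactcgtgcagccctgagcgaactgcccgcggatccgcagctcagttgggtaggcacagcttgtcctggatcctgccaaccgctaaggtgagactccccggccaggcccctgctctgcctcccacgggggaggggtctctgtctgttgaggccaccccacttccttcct
Acp5, downstream start, chr8:28943930-28944179 (-): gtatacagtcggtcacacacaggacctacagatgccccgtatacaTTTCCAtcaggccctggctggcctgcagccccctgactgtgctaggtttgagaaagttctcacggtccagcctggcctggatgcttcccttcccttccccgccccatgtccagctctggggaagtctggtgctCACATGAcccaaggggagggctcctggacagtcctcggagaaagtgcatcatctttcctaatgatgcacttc
Ctsk, chr2:185747298-185747547 (+): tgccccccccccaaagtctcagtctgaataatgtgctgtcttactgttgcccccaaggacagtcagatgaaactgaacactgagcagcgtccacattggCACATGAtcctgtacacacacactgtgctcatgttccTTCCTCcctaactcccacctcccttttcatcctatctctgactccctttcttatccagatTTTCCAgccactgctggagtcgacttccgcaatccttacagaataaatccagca
Tcirg1, chr1:210567936-210568185 (-): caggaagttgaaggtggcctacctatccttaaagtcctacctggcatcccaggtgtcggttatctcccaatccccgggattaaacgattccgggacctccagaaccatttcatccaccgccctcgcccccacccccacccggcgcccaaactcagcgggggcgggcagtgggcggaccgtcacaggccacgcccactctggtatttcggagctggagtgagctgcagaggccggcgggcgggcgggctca
Clcn7, chr10:14656011-14656260 (+): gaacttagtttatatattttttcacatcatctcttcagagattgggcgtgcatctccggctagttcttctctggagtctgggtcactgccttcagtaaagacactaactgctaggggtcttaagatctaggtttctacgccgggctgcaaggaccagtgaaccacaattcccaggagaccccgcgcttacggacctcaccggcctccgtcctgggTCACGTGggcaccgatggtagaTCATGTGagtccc
The window before the downstream start of Acp5 held 1 NFAT match and 1 E-box match. That of Ctsk held 1 NFAT, 1 E-box and 1 PU.1 match, and that of Clcn7 held 2 E-box matches, within 35 bases of the start. The windows of Tcirg1, of Ostm1 and of the upstream start of Acp5 held 0 matches. Over all 33469 windows of the same length in the table, 19.7% held the NFAT motif, 6.34% the AP-1 motif, 11.5% the E-box and 23.3% the PU.1 motif. No match overlapped another in the windows shown.

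At P28, 7 of the 8 genes had a higher fitted level than at P18, and Acp5 alone was called (edgeR quasi-likelihood test). The background for these counts is 50.3% of all tested genes with a log2 fold change above 0, and 0.936% called, 0.516% higher and 0.420% lower. The median log2 fold change was 1.05 over the 8 genes and 0.01 over all tested genes. An unadjusted p under 0.05 was found for 4 of the 8 (14.5% of all genes). The differences were uneven between libraries. In 5 of the 8 genes (Acp5, Ctsk, Mmp9, Tcirg1 and Atp6v0d2) P28 replicates 1 and 3 were the 2 highest of the 8 libraries, which was so for 838 of the 10472 tested genes; this pattern was chosen after the values were seen. P28 replicates 1 and 3 were also the 2 deepest of their age, with 17803006 and 13829437 counts. Replicates 2 and 4 had 9083624 and 5252693. The part of depth in this pattern was not tested.

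**Figure D1:**
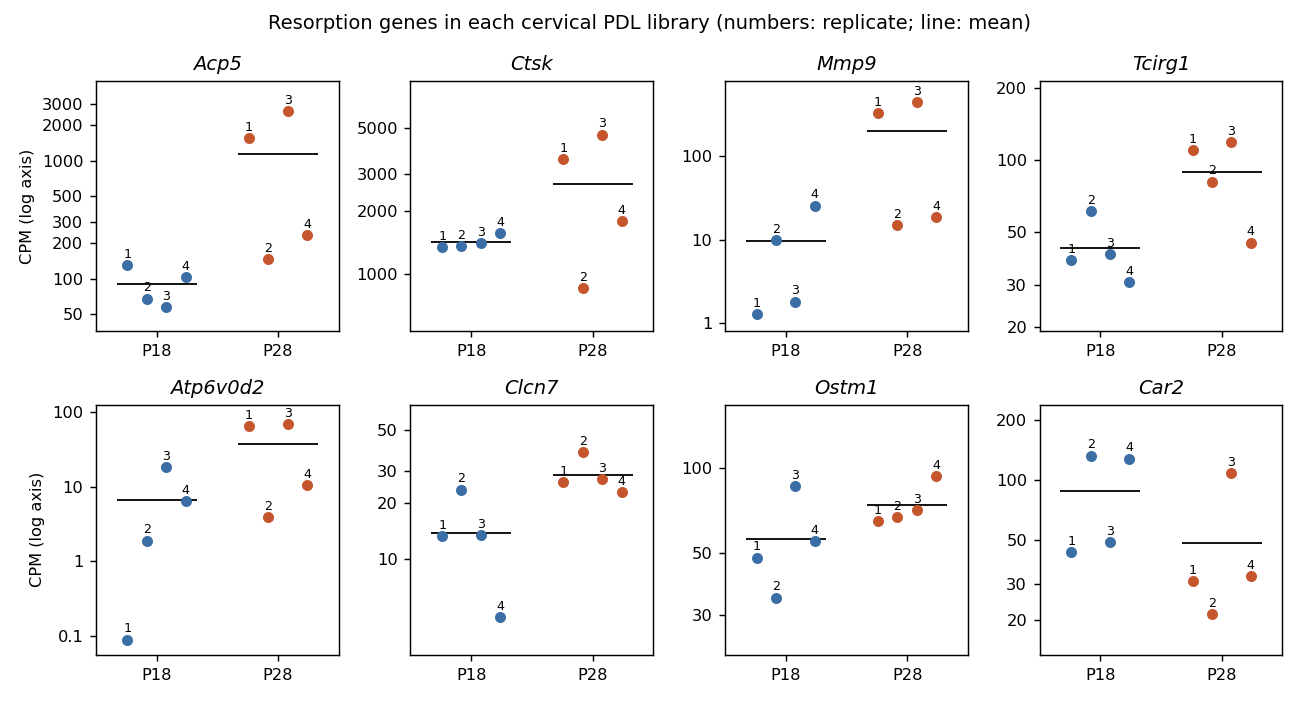
CPM of the 8 resorption genes on a log axis, by age, with 1 point per library, the replicate number beside it and a line at the mean of the 4 libraries. P28 replicates 1 and 3 lie above all other libraries for Acp5, Ctsk, Mmp9, Tcirg1 and Atp6v0d2, while Clcn7, Ostm1 and Car2 do not show this order.

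Acp5 encodes the acid phosphatase of osteoclasts, which is also made by some activated macrophages. It lay at 131, 67.7, 57.4 and 103 CPM in P18 replicates 1 to 4. At P28 it lay at 1552, 146, 2627 and 234 CPM. All 4 P28 libraries were above the highest P18 library, with replicate 2 the nearest to it and replicates 1 and 3 the farthest. Against the P18 mean, the P28 libraries stood at 17.3, 1.63, 29.2 and 2.61 times. The means were 89.9 ± 33.8 and 1140 ± 1182 CPM (SD over 4 libraries). On the log2 scale P28 was higher by 3.67 ± 0.77 (SE; adjusted p = 0.0494 by edgeR). Acp5 was the only one of the 8 whose ages did not overlap; among all tested genes the ages did not overlap in 10.4%, higher at P28 in 4.91% and lower in 5.54%. The call held in 2 of 8 fits with a library left out, those without P28 replicate 2 or 4. Without P18 replicates 1 to 4 the adjusted p was 0.0813, 0.173, 0.155 and 0.129, and without P28 replicates 1 and 3 it was 0.125 and 0.132. Upper-quartile scaling (adjusted p = 0.0517), a filter of 10 counts in 4 libraries (0.0506) and limma with voom (0.0711) also ended the call.

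Ctsk encodes cathepsin K, the main collagen-cleaving protease of osteoclasts, which fibroblasts can make as well. Its level was nearly the same in the 4 P18 animals, at 1349, 1368, 1407 and 1568 CPM. At P28 it was 3545, 857, 4654 and 1789 CPM. P28 replicate 2 lay below every P18 library, and the other 3 P28 libraries lay above every P18 library, so the ages overlapped. On the log2 CPM scale its SD was 0.10 at P18 and 1.09 at P28, where the median tested gene had 0.53 and 0.69. The difference in Ctsk was 0.93 ± 0.39 in log2 units (adjusted p = 0.300 by edgeR), and it did not pass in any of the 8 fits with a library left out (adjusted p of 0.0506 without P28 replicate 2 and up to 0.622). Without P28 replicate 3 the difference was 0.54 in log2 units.

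Mmp9 encodes gelatinase B, which osteoclasts and neutrophils release. It lay at 1.26, 9.74, 1.79 and 25.7 CPM in P18 replicates 1 to 4. The P28 values were 332, 14.8, 448 and 18.7 CPM. P28 replicates 2 and 4 fell inside the P18 range, while replicates 1 and 3 were 34.6 and 46.6 times the P18 mean. On the log2 scale the difference was 4.40 ± 1.20 (adjusted p = 0.107 by edgeR). It was called by the Wald test of DESeq2 (adjusted p = 0.0204), which called 5.35% of all genes, 2.84% higher and 2.51% lower. Leaving out each of the 8 libraries in turn gave 0 calls of Mmp9 (adjusted p of 0.0612 to 0.253 by edgeR). The sum of the 12 neutrophil markers in the table was 655, 998, 44.1 and 525 CPM at P18 and 310, 90.1, 233 and 25.5 CPM at P28, with Ltf at 0 in all 8 libraries. Within P28 this sum, like Mmp9, was highest in replicates 1 and 3, while 3 of the 4 P18 libraries had a higher sum than any P28 library. Of the 8 neutrophil markers tested, 1 had a log2 fold change above 0, with a median of -1.93; edgeR called 0, DESeq2 0, and 1 had an unadjusted p under 0.05. The part of neutrophil RNA in the level of Mmp9 was not tested.

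Tcirg1 encodes the a3 subunit of the proton pump, the form placed in the ruffled border of osteoclasts. It lay at 38.1, 61.2, 40.4 and 30.7 CPM at P18. At P28 it lay at 109, 80.9, 118 and 45.1 CPM. P28 replicates 1, 2 and 3 were above every P18 library, and replicate 4 was below P18 replicate 2. The log2 fold change was 1.05 ± 0.34 (adjusted p = 0.169 by edgeR, and 0.0542 to 0.370 leaving out 1 library). Atp6v0d2 encodes the d2 subunit of the same pump, a form known for its part in osteoclast fusion. It had 1, 53, 427 and 125 counts at P18, or 0.0902, 1.91, 18.2 and 6.35 CPM. At P28 it had 65.2, 3.96, 69.2 and 10.6 CPM, so that replicates 2 and 4 lay inside the P18 range. Its difference was 2.48 ± 1.16 in log2 units (adjusted p = 0.354 by edgeR).

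For the chloride path the libraries fell in another order. Clcn7, the chloride and proton exchanger, lay at 13.3, 23.7, 13.5 and 4.83 CPM at P18. At P28 it lay at 26, 38.0, 27.0 and 23.0 CPM. The highest P28 library was replicate 2, and replicate 4 lay just under P18 replicate 2. The difference was 1.04 ± 0.54 on the log2 scale (adjusted p = 0.407 by edgeR). Ostm1, the partner protein that stabilizes Clcn7, lay at 48.0, 34.5, 86.4 and 54.8 CPM at P18 and at 64.7, 66.7, 70.6 and 93.4 CPM at P28. The log2 fold change was 0.40 ± 0.31 (adjusted p = 0.604 by edgeR), and 3 of the 4 P28 libraries were inside the P18 range.

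Car2 was the only one of the 8 with a log2 fold change below 0. Its enzyme makes protons from carbon dioxide and water and is abundant in red blood cells and their precursors as well. It lay at 43.5, 133, 49.0 and 128 CPM at P18. At P28 it lay at 31.1, 21.3, 109 and 33 CPM. P28 replicates 1, 2 and 4 were below every P18 library, and replicate 3 lay between P18 replicates 3 and 4. The log2 fold change was -0.86 ± 0.53 (adjusted p = 0.504 by edgeR), and -1.64 without P28 replicate 3 (adjusted p = 0.189 by edgeR). Of 8 erythroid markers tested, 0 had a log2 fold change above 0, with a median of -2.29. The sum of the 9 in the table was 2435 to 8096 CPM at P18 and 603 to 4060 CPM at P28. DESeq2 called 4 of them lower and edgeR 1, Klf1, a transcription factor of red cell precursors (log2 fold change -5.00 ± 1.04, adjusted p = 0.0471, kept in 1 of the 8 fits with a library left out). Ahsp, which encodes a chaperone of alpha-globin and was chosen after its values were seen, lay at 41, 194, 33.7 and 93.2 CPM at P18 and at 9.55, 9.17, 39.9 and 8.10 CPM at P28. Like Car2, it was highest in P18 replicates 2 and 4, and P28 replicate 3 was the highest of its age. Other erythroid markers had another order: Alas2, of haem synthesis, lay at 66.2, 206, 381 and 462 CPM at P18, and the summed level was highest in P18 replicates 4 and 3. The part of erythroid RNA in the level of Car2 was not tested.

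**Figure D2:**
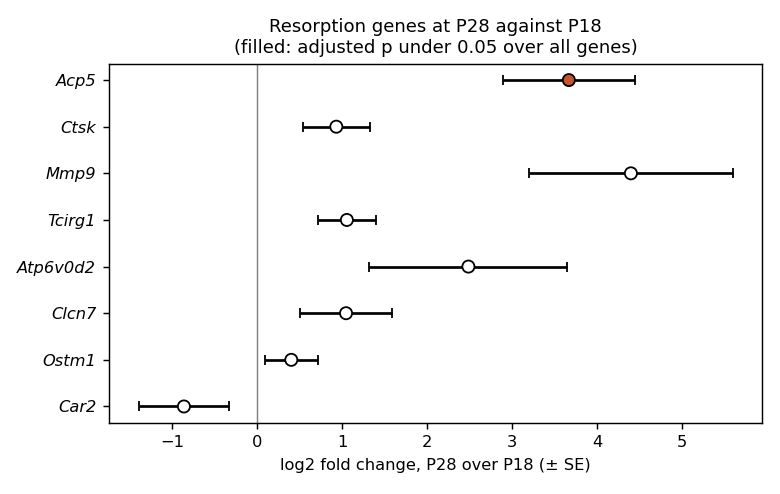
Log2 fold changes of P28 over P18 with their SE for the 8 genes, filled where the adjusted p over all genes was under 0.05. Acp5 at 3.67 is the one filled point, Mmp9 lies furthest to the right at 4.40 with a wide SE, and Car2 at -0.86 is the one point below 0.

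Macrophages share many genes with osteoclasts. The summed level of 13 macrophage markers was 470 to 908 CPM at P18 and 496 to 1665 CPM at P28. Within P28 it was 1046, 496, 1314 and 1665 CPM in replicates 1 to 4, so the highest sum was in replicate 4, where Acp5 was far under its level in replicates 1 and 3. Its members differed in this: Cd68, a lysosomal protein gene of macrophages and osteoclasts, lay at 190, 42.1, 239 and 88.2 CPM, highest in replicates 1 and 3, while C1qa, C1qb and C1qc were highest in replicate 4. Of 12 tested markers, 9 had a log2 fold change above 0, with a median of 0.68. edgeR called 0 (4 at an unadjusted p under 0.05) and DESeq2 1; Marco was at 0 in all libraries. Osteoblast and cementoblast markers, from the cells that build bone and root surface, were summed over 10 genes. Their sum was 3866 to 5916 CPM at P18. By P28 replicate number it was 8960, 9205, 5806 and 10337 CPM, with replicate 3 the lowest of its age. Ibsp and Bglap were also lowest in P28 replicate 3, but not all members followed the sum. Spp1 had 334, 245, 718 and 80.8 CPM by P28 replicate number, highest in replicates 3 and 1. Its ages did not overlap (adjusted p = 0.0579 by edgeR). In 2 of the 9 tested markers, P28 replicates 1 and 3 were the 2 highest libraries. Of 9 tested, edgeR called 1 higher, Bglap, which encodes osteocalcin (adjusted p = 0.0264), while DESeq2, limma with voom and edgeR with no filter each called 3. The edgeR call of Bglap was absent in the fits without P28 replicate 1 and without P18 replicate 2, 3 or 4, where the adjusted p reached 0.0979. The part of these cells in the levels of the resorption genes was not tested.

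The ratio of 2 genes inside a library does not depend on how libraries are scaled to each other. The ratio of Ctsk counts to Acp5 counts was 10.3, 20.2, 24.5 and 15.2 in P18 replicates 1 to 4. At P28 it was 2.28, 5.86, 1.77 and 7.63. Every P28 ratio, those of replicates 2 and 4 included, was below the lowest P18 ratio. The mean log2 ratio was 4.06 ± 0.55 at P18 and 1.87 ± 1.02 at P28 (SD, n = 4), a difference of -2.18 (exact permutation test, 2-sided, p = 0.0286, the smallest that 4 against 4 allow, and 0.0571 adjusted over the 4 ratios tested). The ratio was formed with genes of both roles that also entered the test by gene, so it is no independent support for the call of Acp5.

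Tcirg1 was set against Atp6v1a, the catalytic subunit that every vacuolar ATPase needs. The ratio of counts was 0.940, 1.57, 0.751 and 0.507 at P18 and 3.47, 2.64, 2.39 and 2.46 at P28. The ages did not overlap, and the 4 P28 libraries lay close together. The mean log2 ratio was -0.21 ± 0.68 at P18 and 1.44 ± 0.25 at P28, a difference of 1.65 (exact permutation p = 0.0286, adjusted 0.0571). Atp6v1a itself lay at 39.0 to 60.6 CPM at P18 and 18.3 to 49.4 CPM at P28 (-0.58 ± 0.37 in log2 units, adjusted p = 0.516 by edgeR). Of the 18 other pump subunits tested, Atp6v1a included, 14 had a log2 fold change above 0, with a median of 0.33. Atp6v1a had the lowest log2 fold change of these 18, which widens the difference in its ratio. No ratio to another subunit was formed, so the difference holds for Atp6v1a and not for the pump as a whole. Both genes also entered the test by gene, so the ratio is no independent support.

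Acp5 was also set against Csf1r, the receptor for the growth factor on which osteoclasts and macrophages depend. This ratio was 1.67, 0.684, 0.473 and 1.85 at P18 and 10.5, 3.87, 17.0 and 1.32 at P28. P28 replicate 4 lay inside the P18 range, and the other 3 lay above it. The difference of the mean log2 ratios was 2.46 (exact permutation p = 0.0857, adjusted 0.114). The ratio of Mmp9 to Acp5 was 0.00997 to 0.248 at P18 and 0.0801 to 0.214 at P28, with a difference of 1.18 on the log2 scale (exact permutation p = 0.343, adjusted 0.343). That difference was 0.33 without P18 replicate 1 and 1.88 without P18 replicate 4. The 4 P28 libraries thus lay inside the P18 range, although the levels of both genes differed many-fold between them. The low end of that wide range came from P18 replicates 1 and 3, with 14 and 42 counts of Mmp9. Lying inside it therefore does not show that the ratio was kept.

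**Figure D3:**
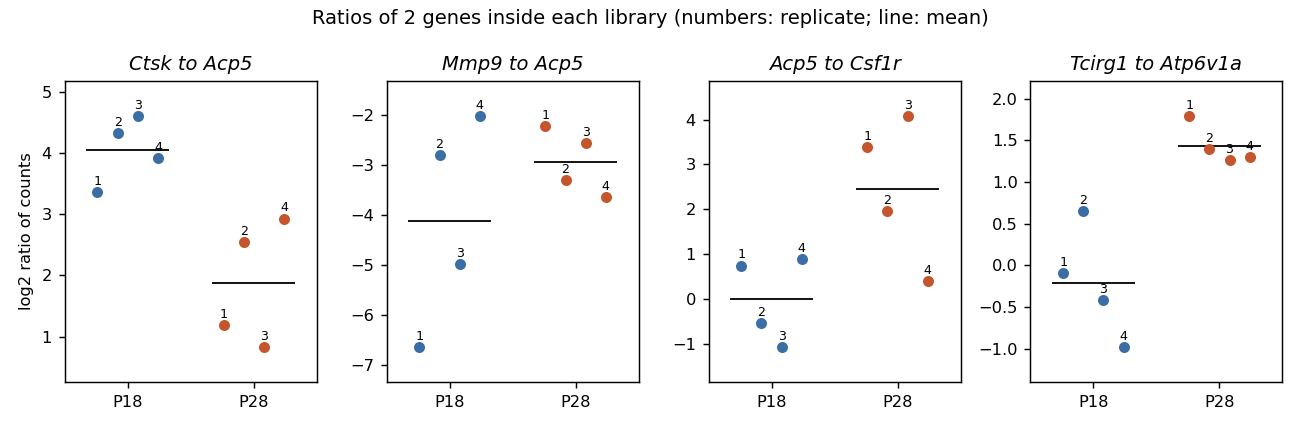
Log2 ratios of the counts of 2 genes inside each library, by age, with the replicate number beside each point and a line at the mean of 4. The P28 points of Ctsk to Acp5 all lie below the P18 points and those of Tcirg1 to Atp6v1a all above, while the ages overlap for Mmp9 to Acp5 and Acp5 to Csf1r.

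The co-variation of the genes over libraries was examined on log2 CPM. For Acp5, Ctsk and Mmp9 the widest gap between neighbouring libraries separated P28 replicates 1 and 3 from the other 6; it took up 49.4%, 40.4% and 44.3% of the whole range. The libraries fall into separate clusters for these 3 genes, so no pooled correlation between them is given. Among the other 6 libraries, Pearson's r was 0.06 for Acp5 with Ctsk, 0.40 for Acp5 with Mmp9 and 0.05 for Ctsk with Mmp9. Spearman's rho was 0.03, 0.37 and 0.54 for the same pairs. The exact permutation p was 0.904, 0.410 and 0.936 for r and 1, 0.497 and 0.297 for rho (adjusted over the 3 pairs, 0.936 for each r and 1, 0.746 and 0.746 for rho). The joint high values of these genes lie in P28 replicates 1 and 3, which is also how the 3 genes were picked here. The values among the other 6 libraries are thus no separate support, and with so few libraries co-variation among them is not shown to be absent.

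The pair of genes that tracked each other most closely by rank was Tcirg1 and Clcn7. Over the 8 libraries r was 0.78 (exact permutation p = 0.0140) and rho 0.93 (p = 0.00223). Adjusted over all 28 pairs of the 8 genes, these were 0.112 and 0.0625, and 0 of the 28 pairs passed by either measure. Without P28 replicates 1 and 3, the libraries farthest from the median of Tcirg1, r was 0.91. Both genes were lowest in P18 replicate 4. For Clcn7 the widest gap between neighbouring libraries, 48.7% of its range, set this library below the other 7. Tcirg1 and Clcn7 were not tested as a pair without P18 replicate 4. Each r pools both ages, so it does not separate co-variation from the difference between the ages. Clcn7 and Ostm1, whose proteins form 1 complex, had an r of 0.14 (exact permutation p = 0.725, adjusted 0.841) and a rho of 0.21 (p = 0.619, adjusted 0.722); without P18 replicates 1 and 4, the farthest in Clcn7, r was -0.25.

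**Figure D4:**
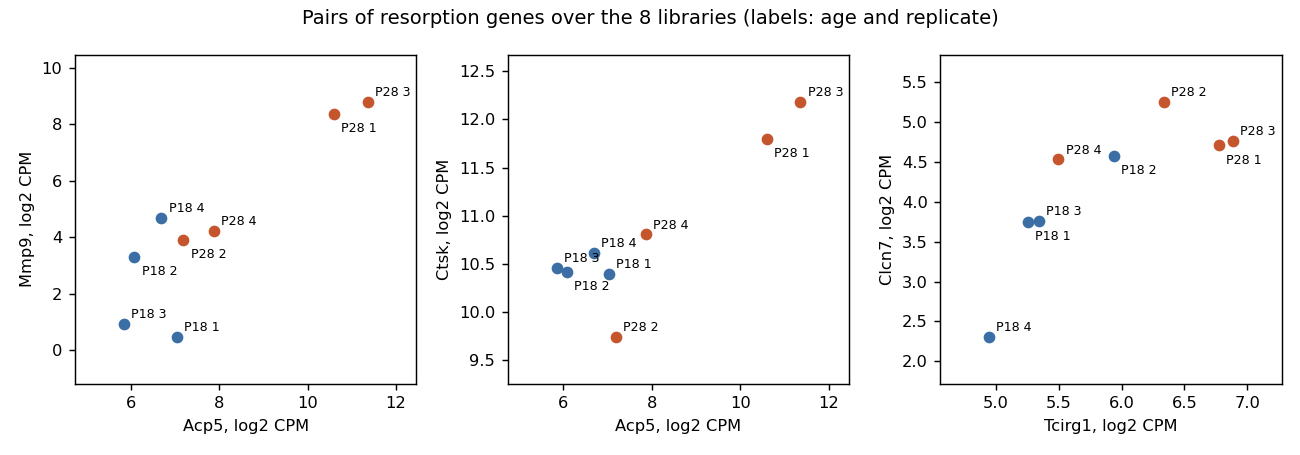
Log2 CPM of 1 gene against another over the 8 libraries, labelled by age and replicate. For Acp5 with Mmp9 and with Ctsk, P28 replicates 1 and 3 lie far from the other 6 libraries, among which r is 0.40 and 0.06; Tcirg1 and Clcn7 rank the 8 libraries in a like order (rho of 0.93, which did not pass after adjustment).

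The genes whose pattern over the 8 libraries was most like that of Acp5 were sought among 7808 genes with a mean log2 CPM of at least 3. Here r over all 8 libraries serves only to rank genes by likeness, since the libraries fall into separate clusters for Acp5. The 10 with the highest Pearson r were Tspan17, Cox17, Snrpd2, Uqcrq, Mdfic, Glis2, Ctsz, Ftl1, Dph3 and Nosip, at 0.96 to 0.99; the highest of so many is high by selection, and P28 replicates 1 and 3 carry much of it. Without these libraries r was 0.65 to 0.89. Tspan17, a tetraspanin, came first, at 105 to 152 CPM at P18 and 282, 136, 347 and 153 CPM in P28 replicates 1 to 4. Ctsz, which encodes the lysosomal protease cathepsin Z, had the widest range of the 10, at 68.8 to 109 CPM at P18 and 430, 99.2, 591 and 165 CPM at P28 (1.86 ± 0.46 in log2 units, adjusted p = 0.0858 by edgeR). Cox17 and Uqcrq serve the respiratory chain, Snrpd2 is a part of the spliceosome and Ftl1 is the light chain of ferritin, a gene with near-identical copies whose reads may be shared. None of the 10 was called. With DESeq2 size factors 8 of the 10 were again among the 10 highest.

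The other subunits of the vacuolar ATPase are shared by most cell types. Of 18 tested, 14 had a log2 fold change above 0 and the median was 0.33. edgeR called 0 (4 at an unadjusted p under 0.05), and DESeq2 and limma with voom each called 3 higher. Atp6v0b, a proteolipid of the membrane ring, lay at 83.7 to 141 CPM at P18 and 158 to 374 CPM at P28 (1.26 ± 0.28 in log2 units, adjusted p = 0.0569 by edgeR). Atp6v1f, a subunit of the rotor, lay at 133 to 142 CPM at P18 and 201 to 332 CPM at P28 (0.88 ± 0.20, adjusted p = 0.0595). In 3 of the 18, Atp6v0b, Atp6v1f and Atp6v0e1, the ages did not overlap and P28 was higher, which was so for 4.91% of all tested genes. Atp6v1e1 and Atp6v0e1 had differences of 0.78 ± 0.24 and 0.48 ± 0.19 on the log2 scale (adjusted p = 0.144 and 0.249 by edgeR).

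The ruffled border of osteoclasts forms by the fusion of lysosomes with the cell membrane. Of 25 tested lysosomal genes, 20 had a log2 fold change above 0, with a median of 0.14; edgeR called 0 higher (5 at an unadjusted p under 0.05 in either direction) and 1 lower. DESeq2 called 2 higher and 1 lower, and edgeR without P28 replicate 2 also called 2 higher. The gene called lower was Ctsc, which encodes cathepsin C, an activator of granule proteases in myeloid cells. It lay at 202, 150, 225 and 275 CPM at P18 and 54.6, 112, 55.0 and 93.0 CPM at P28 (-1.44 ± 0.29 in log2 units, adjusted p = 0.0407 by edgeR). P28 replicates 1 and 3, which were highest for Acp5, were lowest for Ctsc. The call of Ctsc was lost on leaving out P18 replicate 1, 2, 3 or 4, or P28 replicate 1 or 3 (adjusted p up to 0.127 by edgeR). Cathepsin D (Ctsd) and the hexosaminidase subunit Hexa had differences of 0.73 ± 0.21 and 0.75 ± 0.27 on the log2 scale (adjusted p = 0.132 and 0.209 by edgeR).

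Genes that direct osteoclast formation held 0 calls among 20 tested by edgeR (4 at an unadjusted p under 0.05, 0 by DESeq2 and 1 by limma with voom); 13 had a log2 fold change above 0, with a median of 0.42. Nfatc1, the transcription factor that switches on Acp5, Ctsk and other osteoclast genes, lay at 47.1, 58.4, 42.3 and 69.7 CPM at P18 and at 110, 86.6, 127 and 52.3 CPM at P28. P28 replicate 4 lay inside the P18 range and the other 3 above it (log2 fold change 0.79 ± 0.31, adjusted p = 0.250 by edgeR). Tyrobp (DAP12), a signalling adaptor of myeloid cells, lay at 109 to 144 CPM at P18 and at 443, 54.0, 511 and 137 CPM at P28, again highest in replicates 1 and 3 (1.22 ± 0.52, adjusted p = 0.308). The NF-kappa-B gene Nfkb2 and the transcriptional repressor gene Bcl6 had differences of 1.20 ± 0.40 and 2.31 ± 0.88 on the log2 scale (adjusted p = 0.175 and 0.244 by edgeR).

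Several defining genes of osteoclasts were low or near 0 in these captures and were named for their role after their values were seen. Tnfrsf11a, which encodes the RANKL receptor RANK, lay at 0.0902, 0.0360, 2.81 and 2.13 CPM at P18 and at 4.81, 1.15, 13.5 and 11 CPM at P28 (2.57 ± 1.43, adjusted p = 0.446). P28 replicates 1, 3 and 4 lay above every P18 library and replicate 2 did not. Calcr, the calcitonin receptor gene, had 1 count in P28 replicate 4 and 0 in the other 7 libraries, and Siglec15 had at most 3 counts in any library. Oscar had 60 counts in P18 replicate 4, 112 in P28 replicate 1 and at most 7 elsewhere. These 3 genes did not pass the filter on low counts. Whether their low counts reflect their levels or how genes were counted was not tested.

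For attachment and the sealing zone, 15 genes were tested, 9 had a log2 fold change above 0 and the median was 0.06. Of these, 2 were called higher and 0 lower. Cd9, a tetraspanin of many cell types, rose from 577 to 771 CPM over the P18 libraries to 1542 to 1620 CPM over the P28 libraries (log2 fold change 1.23 ± 0.16, adjusted p = 0.00681 by edgeR). Unlike Acp5, it was even across the 4 P28 animals. Without P18 replicate 2 Cd9 was not called (adjusted p = 0.0577 by edgeR). Gsn (gelsolin), which severs actin filaments, rose from 334 to 493 CPM to 746 to 1041 CPM (1.05 ± 0.19, adjusted p = 0.0308). It lost its call on leaving out P18 replicate 1, 2, 3 or 4, or P28 replicate 1, with p up to 0.120 after adjustment by edgeR. Cd44, the hyaluronan receptor, had a difference of 0.92 ± 0.22 on the log2 scale (adjusted p = 0.0773 by edgeR). Itgb3, the beta chain of the osteoclast vitronectin receptor, lay at 5.61 to 28.3 CPM at P18 and 0.415 to 12.4 CPM at P28 (-1.51 ± 0.91, adjusted p = 0.491).

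Other carbonic anhydrases and bicarbonate carriers held 0 calls among 7 tested (edgeR; 2 at an unadjusted p under 0.05, and 1 lower by DESeq2), with a median of -0.01 and 3 above 0. Slc4a1 and Car1, both best known from red blood cells, had differences of -2.14 ± 0.70 and -2.53 ± 1.15 on the log2 scale (adjusted p = 0.171 and 0.339 by edgeR). Car13 and Car3, cytosolic carbonic anhydrases, had differences of -1.47 ± 1.23 and 0.58 ± 0.52 (adjusted p = 0.640 and 0.663). Slc4a2, the bicarbonate exchanger of osteoclasts, had a difference of 0.32 ± 0.40 (adjusted p = 0.766). Of the signals that other cells send to osteoclasts, Tnfsf11, which encodes RANKL, had 0 counts in all 8 libraries. Cttn, an actin-binding protein gene of most cell types, had at most 1 count in any library and the ligament gene Aspn at most 2, so whether the 0 of Tnfsf11 reflects its level or how genes were counted was not tested. The other 7 were tested and all had a log2 fold change above 0, with a median of 1.05; edgeR called 0 (2 at an unadjusted p under 0.05) and DESeq2 1. The 7 do not all act in 1 direction: Tnfrsf11b encodes OPG, the decoy receptor that holds RANKL back (0.54 ± 0.47, adjusted p = 0.654 by edgeR). Csf1 and Cxcl12 lay near 0, at 0.16 ± 0.67 and 0.05 ± 0.37 (adjusted p = 0.943 and 0.973 by edgeR). Il34, another ligand of the Csf1r receptor, lay at 22.0 to 44.5 CPM at P18 and 51.7 to 79.6 CPM at P28 (1.05 ± 0.31, adjusted p = 0.136 by edgeR). The chemokine gene Ccl2 had a log2 fold change of 2.18 ± 0.92 (adjusted p = 0.301). Pthlh, which encodes the parathyroid hormone-related protein, and the chemokine gene Ccl9 had differences of 1.36 ± 0.93 and 2.28 ± 1.56 (adjusted p = 0.547 and 0.551).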

How the data were processed

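RNA was sequenced from laser-captured cervical periodontal ligament of rats, with 4 libraries at P18 and 4 at P28, made with the SMARTer Ultra Low input kit per the labels. The authors deposited raw counts per gene symbol. The submitters' processing notes name build rn6 and the tools HTSeq 0.9.1, STAR 2.5.3a and edgeR 3.16.5, with no roles. The strand setting and annotation were not given in the sources used here. Another 40 columns of the count table were not used here. The deposited normalized table was not used.

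Counts were tested with edgeR 4.0.16 in R 4.3.3 (quasi-likelihood test, TMM, expression filter by age with a minimum count of 10, age as the only term, Benjamini-Hochberg over 10472 genes). The SE is the size of the log2 fold change divided by the root of F. Log2 CPM used a prior count of 2, and ratios a pseudocount of 0.5. Alternatives were DESeq2 1.42.0, voom with quality weights of limma 3.58.1, other scalings and filters, a replicate block and each library left out. Each library was taken as 1 animal.

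The genes, lists and tests were chosen with earlier results of these data known. The text names the 8 members found, the called genes and up to 4 with the lowest p of each pathway list, called cell type markers and the 10 genes most like Acp5. Atp6v1a and Csf1r enter through the ratios, and Slc4a2, Ahsp, Tnfrsf11a, Calcr, Siglec15, Oscar, Alas2, Cd68, C1qa, C1qb, C1qc, Cttn, Aspn and the zero genes Ltf, Marco and Tnfsf11 were named after their values were seen. The same holds for Odam, Spp1, Ibsp, Tnfrsf11b, Csf1 and Cxcl12. Promoters come from RefSeq (GRCr8) and were matched by symbol; rn6 coordinates are not given.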

Additional observations from a re-analysis of the deposited data

Results flagged for a closer look

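Of 24 groups of 4 libraries checked (8 genes and 4 ratios at 2 ages), 1 held a library far from the other 3. Car2 lay at 109 CPM in P28 replicate 3, while the other P28 libraries lay between 21.3 and 33 CPM, a gap of 0.866 of the whole range where the limit is 0.829. About 1 in 20 such groups is marked by chance. Erythroid markers summed to 4060 CPM in the same library, the highest of its age; their part in this value was not tested.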

How the results depend on the processing

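Of the 8 genes, 7 had a log2 fold change above 0 in each of the 15 alternative fits, and 0 were called lower in any. The number called higher was 2 with the DESeq2 Wald test (Acp5 and Mmp9), 0 with upper-quartile scaling, voom, 10 counts in 4 libraries or the replicate block, and 0 to 1 leaving out 1 library. For Acp5 the adjusted p was 0.0517 with upper-quartile scaling, 0.0711 with voom and 0.0506 with 10 counts in 4 libraries. Over all genes, 297 were called higher and 263 lower by DESeq2, 175 and 132 by voom, and 4 to 110 and 5 to 105 leaving out 1 library. Same-numbered libraries of the ages did not deviate together (r of -0.02 to 0.00 across genes, and -0.04 to 0.05 for pairs with different numbers). With 4 libraries an age, this cannot tell whether same-numbered libraries share anything beyond the number. With the replicate block 16 genes were called higher and 10 lower, and Acp5 had a log2 fold change of 2.76 (adjusted p = 0.151). The 4 ratios kept their direction with a pseudocount of 1 and leaving out any library, and none passed the threshold in these tests. In the main exact permutation test the smallest p was 0.0286. The 2 ratios whose ages did not overlap could then reach no less than 0.0571 after adjustment, unless another ratio was separated too. Missing the threshold therefore does not show that these ratios were alike at the 2 ages. Leaving out a library, the log2 differences ran from -2.54 to -1.83 for Ctsk to Acp5, 0.33 to 1.88 for Mmp9 to Acp5, 1.92 to 3.14 for Acp5 to Csf1r and 1.39 to 1.93 for Tcirg1 to Atp6v1a. The cause of these changes was not tested. With 4 libraries an age and depths that differ up to 5-fold, a difference that missed the threshold is not shown to be absent.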

Other observations

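Other cell types of the captures are given as values. The sum of 7 enamel organ markers ran from 15 to 4849 CPM at P18. In P28 replicates 1 to 4 it was 159, 5.73, 637 and 5.61 CPM, so it was highest in replicates 3 and 1, as Acp5 was. Most of this came from Odam, at 155, 4.48, 629 and 0.415 CPM in P28 replicates 1 to 4. Whether enamel organ tissue and the resorption genes vary together over the captures was not tested. Of 4 tested, edgeR called 0 higher and 2 lower, the enamel matrix genes Ambn and Amtn. Ambn lay at 2325, 170, 690 and 9.70 CPM at P18 and at 1.06 to 4.57 CPM at P28 (adjusted p = 0.0204, 0.0917 without P28 replicate 1 and 0.0716 without P28 replicate 3). Amtn lay at 0.813 to 143 CPM at P18 and at 0 in 3 of the 4 P28 libraries (adjusted p = 0.0188, up to 0.0873 without P18 replicate 2 or P28 replicate 1 or 3). By limma with voom neither was called (adjusted p = 0.557 and 0.266). That of 9 lymphocyte markers ran from 32.6 to 187 CPM and 14.0 to 65.3 CPM, with 0 of 5 called by edgeR (2 at an unadjusted p under 0.05). That of 7 endothelial markers ran from 632 to 868 CPM and 653 to 1112 CPM, with 0 of 7 called by edgeR (1 at an unadjusted p under 0.05). That of 6 Schwann cell markers ran from 65.0 to 240 CPM and 90.9 to 247 CPM, with 0 of 6 called by edgeR (0 at an unadjusted p under 0.05). Of 8 tested ligament fibroblast markers, 1 was called higher and 1 lower by edgeR. Fmod, which encodes the collagen-binding fibromodulin, rose from 13.3 to 103 CPM over the P18 libraries to 280 to 406 CPM at P28 (adjusted p = 0.0264), and was not called without P18 replicate 1 or 2 or P28 replicate 1 or 3 (up to 0.102). Tnmd, which encodes tenomodulin, a membrane protein of tendon and ligament cells, fell from 478 to 732 CPM to 51.0 to 133 CPM (adjusted p = 0.00608), and was called in all 15 alternative fits.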
